A study of Mus musculus with 8 samples.

Results

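The Ly49 receptors are the killer cell lectin-like receptors through which mouse natural killer (NK) cells read MHC class I on other cells. The 6 genes described were Klra1 (Ly49A), Klra3 (Ly49C), Klra4 (Ly49D), Klra7 (Ly49G), Klra8 (Ly49H) and Klra9 (Ly49I), chosen by name among the 24405 genes with a row in any library, and each of the 6 had a row in all 8 libraries. They were read in NK cells and in CD8 T cells of blood and allografts. NK cells were barcodes of at least 500 unique molecular identifiers (UMIs) with at least 1 UMI of Ncr1, Klrb1c or Klre1 and 0 of Cd3d, Cd3e and Cd3g, which gave 1108 of 47542 cells. CD8 T cells carried at least 2 UMIs of Cd8a and Cd8b1, which gave 10917 cells.

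C57BL/6J recipients each received a heart, liver or kidney graft of a BALB/c donor, with both strains at 8 weeks of age, and no immunosuppressive drug was given. The recipients were killed on day 7, and single cells were sequenced by Microwell-seq, a microwell method that counts UMIs near the 3' end of polyadenylated RNA. There was 1 library of peripheral blood mononuclear cells (PBMC) and 1 of tissue-infiltrating lymphocytes (TIL) for each of heart, liver and kidney, and 1 of parenchymal cells (PC) for each of liver and kidney. The labels give male sex, the BALB/c strain and the same age for every library. The study took its single-cell samples from more than 1 recipient of each organ, but the labels do not say how many animals went into each library. Graft libraries can hold cells of both strains.

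Ly49 receptors are lectin-like dimers. The inhibitory members carry a tyrosine motif near the start of the cytoplasmic tail that recruits the phosphatase Ptpn6 (SHP-1) when class I is bound, whereas the activating members lack that tyrosine and signal through the adaptor Tyrobp (DAP12). Each NK cell expresses a subset of the genes, so that a population is a mosaic, and small sets of memory-like and regulatory CD8 T cells also carry inhibitory members. The cluster differs between strains: Ly49D and Ly49H belong to the C57BL/6 cluster and are absent from that of BALB/c, and Ly49H is known for binding the m157 protein of mouse cytomegalovirus. Over all barcodes, each of the 8 libraries had UMIs of Klra4 (43 to 530) and Klra8 (32 to 559). Cells were not assigned to a strain.

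The first 45 coding bases of each member show the difference between the inhibitory and the activating members. They were read from the GENCODE transcripts of build GRCm38, where the 6 genes lie on the minus strand of chromosome 6, and codon 8 is in capitals.
Klra1 (Ly49A, inhibitory): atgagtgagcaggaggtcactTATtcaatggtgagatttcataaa
Klra3 (Ly49C, inhibitory): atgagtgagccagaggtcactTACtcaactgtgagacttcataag
Klra7 (Ly49G, inhibitory): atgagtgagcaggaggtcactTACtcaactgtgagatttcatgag
Klra9 (Ly49I, inhibitory): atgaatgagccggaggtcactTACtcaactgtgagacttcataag
Klra4 (Ly49D, activating): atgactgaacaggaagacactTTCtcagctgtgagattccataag
Klra8 (Ly49H, activating): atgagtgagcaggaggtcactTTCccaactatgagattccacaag
Codon 8 was a tyrosine codon (TAT or TAC) in the 4 inhibitory members and the phenylalanine codon TTC in the 2 activating members. The genes span chr6:130043731-130067271 (Klra4), chr6:130115226-130129898 (Klra8), chr6:130178675-130193112 (Klra9), chr6:130218605-130233322 (Klra7), chr6:130323289-130337574 (Klra3) and chr6:130363917-130386874 (Klra1).

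The coding sequences were alike enough to matter for counting. Identity is given as identical aligned bases over the length of the longer coding sequence of a pair. It was 95.9% for Klra3 and Klra9, 91.9% for Klra8 and Klra9, 88% for Klra1 and Klra4 and 77.4% for the activating pair Klra4 and Klra8. Among 100-base windows of the last 500 transcript bases, none of Klra1, Klra4 or Klra8 occurred unchanged in another Klra gene. The shared windows were 11.2% for Klra9 (with Klra11-ps), 5.74% for Klra7 (with Klra13-ps) and 5.49% for Klra3 (with Klra10). The study removed reads that aligned to several places, so Klra3, Klra7 and Klra9 may be undercounted to a degree that was not tested.

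The libraries held 3418722 to 19171264 UMIs over 10000 barcodes each, and 795 to 10000 barcodes reached 500 UMIs. Alb, a hepatocyte gene, had 1056 UMIs in the library labelled heart TIL and 0 in the library labelled liver TIL, while Myl7, a cardiomyocyte gene, had 2 and 128. These 2 organ markers therefore run against the labels of the 2 libraries. Erythroid RNA did not do so. In NK cells Hbb-bs had 2113 UMIs in liver PBMC and 2438 in labelled liver TIL, 16 in heart PBMC and 13 in labelled heart TIL, but 0 in liver PC. Whether the 2 libraries were exchanged was not tested. Results that rest on these libraries are given as labelled, with the exchanged pairing beside the blood and tissue comparisons under the wider gate. Barcodes also found in another library made up 0 to 73 of the NK cells of a library. No doublet caller was run, and 0 to 22 cells of a library passed both gates.

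The NK gate was checked against its markers. Levels are CPM, the UMIs of a gene in 1000000 UMIs. The 10 NK genes summed to between 9483 and 26804 CPM in the 6 libraries with at least 50 NK cells, where 0 or 1 of the 10 was at 0. In heart PBMC they summed to 10905 CPM in NK cells, 9074.5 in CD8 T cells and 6371.5 in all cells, so the sum set the gate little apart there. Nkg7, 1 of the 10, was lower in NK than in CD8 T cells in each of these libraries except kidney PBMC. It had 1556 and 2766 CPM in heart PBMC, and 4714 and 3270 in kidney PBMC. The gated blood cells also held neutrophil RNA. The 8 neutrophil genes summed to 170427 CPM in heart PBMC and 95527 in liver PBMC, while kidney PBMC had 31385. They summed to 6760 in labelled heart TIL, 5829 in labelled liver TIL and 12448 in liver PC. In all cells of heart PBMC the same list summed to 197138 CPM. The 10 macrophage genes summed to 1842 CPM in kidney PBMC NK cells and to 8889 to 16737 in the other 5 libraries. The 10 T cell genes, of which the gate sets the 3 Cd3 genes to 0, summed to 934, 820 and 2227 CPM in NK cells of heart, liver and kidney PBMC, and to 3718, 2275 and 2137 CPM in labelled heart TIL, labelled liver TIL and liver PC. The 6 erythroid genes summed to 56091 CPM in labelled liver TIL, 12247 in liver PBMC and 9182 in kidney PBMC, and to 5.16 to 305 in the other 3. Under a stricter gate of at least 2 gate UMIs the NK genes reached 18401 to 29845 CPM and the neutrophil genes 5012 to 90526 CPM, so blood and tissue levels of the members are given under both gates. Each organ and compartment had 1 library, so no difference between 2 libraries could be tested. The 3 blood and 3 tissue libraries with enough NK cells were described side by side and not tested. All intervals are exact 95% intervals for counting error only. Those of levels, ratios and UMI shares treat each UMI as a separate draw and leave out sampling of cells. In liver PC, 260 of the 269 Ly49 UMIs of NK cells came from 44 cells.

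The Ly49 genes had a higher summed level in NK cells than in the other cell gates in each library with at least 50 NK cells. NK cells held 31.9%, 47.8% and 60.8% of the Ly49 UMIs of cells of at least 500 UMIs in heart, liver and kidney PBMC. In labelled heart TIL, labelled liver TIL and liver PC they held 10.2%, 13.1% and 13.1%. Only kidney PBMC had most of these UMIs inside the NK gate. In NK cells the sum of the 6 was 1273 CPM in heart PBMC (1121 to 1440, 216 cells) and 1870 in liver PBMC (1718 to 2031, 375 cells), while kidney PBMC had 3775 (3463 to 4108, 168 cells). It was 916 CPM in labelled heart TIL (744 to 1115, 134 cells), 1056 in labelled liver TIL (844 to 1306, 97 cells) and 1388 in liver PC (1227 to 1565, 114 cells). Kidney PBMC stood above the other 5 without overlap, and the 3 tissue libraries lay below liver PBMC. After each cell was thinned to 500 UMIs, 25.0%, 31.2% and 64.3% of NK cells of heart, liver and kidney PBMC had a Ly49 UMI (31.0%, 36.0% and 70.2% without thinning). In labelled heart TIL, labelled liver TIL and liver PC the thinned shares were 30.6%, 19.6% and 36.8%. In neutrophils, which should lack these genes, the thinned shares were 3.07%, 5.39% and 11.4% in the same 3 blood libraries, where median depths were 738, 660 and 612 UMIs against 834, 686 and 724 in NK cells.

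The blood libraries differed less under the stricter gate. Under it the sum was 3737 CPM in heart PBMC (3198 to 4341, 44 cells) and 4294 in liver PBMC (3875 to 4745, 102 cells), while kidney PBMC had 3960 (3570 to 4381, 101 cells). These 3 intervals overlapped. The tissue libraries then gave 1387 CPM in labelled heart TIL (943 to 1969, 25 cells), 3847 in labelled liver TIL (2817 to 5132, 16 cells) and 2595 in liver PC (49 cells). The part of neutrophil RNA in the lower levels of the wider gate was not tested.

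**Figure D1:**
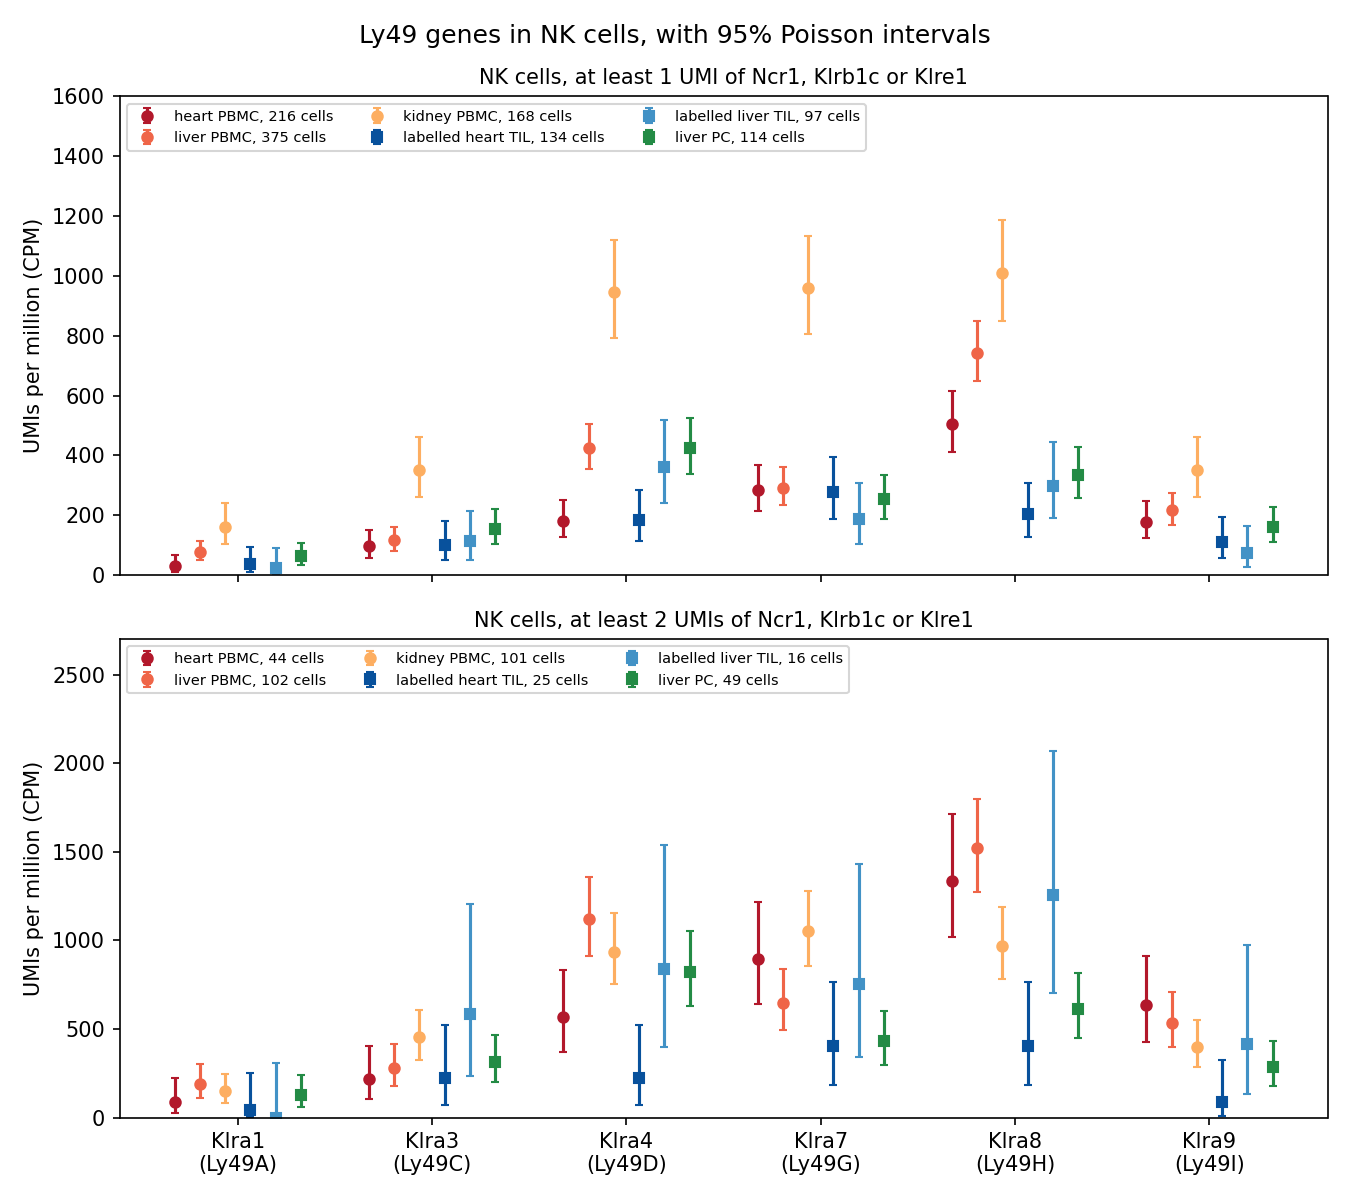
Each Ly49 gene in NK cells on the x axis, with CPM on the y axis, for cells with at least 1 gate UMI (top) and at least 2 (bottom); points are single libraries (circles blood, squares tissue) and bars exact 95% Poisson intervals. Kidney PBMC is highest for every gene in the top panel, and with at least 2 gate UMIs Klra8 is highest in liver PBMC at 1521 CPM and lowest in labelled heart TIL at 403 CPM.

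Klra8, the activating receptor Ly49H, had the highest UMI count of the 6 in each blood library under the wider gate. Klra7 had more in kidney PBMC under the stricter gate, at 100 UMIs against 92. The level of Klra8 in NK cells of the wider gate was 505 CPM in heart PBMC (411 to 614) and 744 in liver PBMC (650 to 848), while kidney PBMC had 1009 (851 to 1187). In tissue it was 203 CPM in labelled heart TIL (128 to 308), 298 in labelled liver TIL (191 to 444) and 335 in liver PC (259 to 428). All 3 blood libraries were above all 3 tissue libraries, but the interval of heart PBMC overlapped those of labelled liver TIL and liver PC. Klra4, the activating receptor Ly49D, did not follow Klra8 under the wider gate. Klra4 was 182 CPM in heart PBMC and 425 in liver PBMC, while kidney PBMC had 946. It was 185 in labelled heart TIL, 360 in labelled liver TIL and 423 in liver PC. Blood and tissue overlapped, and below kidney PBMC no neighbours in the order of Klra4 levels were separated by their intervals. Libraries further apart in the order were separated. Liver PBMC (355 to 505) and liver PC (337 to 525) lay above heart PBMC (127 to 252) and labelled heart TIL (113 to 286). Under the stricter gate Klra4 was 2.54-fold in blood for heart PBMC against labelled heart TIL (0.960 to 8.47). For liver PBMC it was 1.34-fold against labelled liver TIL (0.697 to 2.87) and 1.36-fold against liver PC (0.983 to 1.90).

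Among the inhibitory members, Klra7 (Ly49G) had the highest counts and Klra1 (Ly49A) the lowest. Klra7 was 283, 292 and 960 CPM in NK cells of heart, liver and kidney PBMC, and 277, 186 and 253 CPM in labelled heart TIL, labelled liver TIL and liver PC. Klra9 (Ly49I) was 177, 216 and 350 CPM in the blood libraries and 111, 74.6 and 160 CPM in the tissue libraries, in the same order. For both genes each blood library was above each tissue library in value. For Klra7 the intervals of heart and liver PBMC overlapped those of all 3 tissue libraries, and for Klra9 those of heart PBMC did so while liver PBMC was apart from labelled liver TIL alone. Klra3 (Ly49C) was 96.0, 116 and 350 CPM in blood and 102, 112 and 155 CPM in tissue, with kidney PBMC alone set apart. Klra1 was 30.3, 76.4 and 161 CPM in blood and 37, 24.9 and 61.9 CPM in tissue, and no neighbours in its order were separated.

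Blood and tissue were then compared within each organ, which asks whether NK cells in the allograft carry the receptors seen in the circulation. The sum of the 6 was higher in blood by 1.39-fold for heart PBMC against labelled heart TIL (1.10 to 1.77), 1.77-fold for liver PBMC against labelled liver TIL (1.41 to 2.25) and 1.35-fold for liver PBMC against liver PC (1.16 to 1.56). The last 2 comparisons share the liver PBMC library. The direction of the sum turned in heart when cells with a T cell receptor or coreceptor UMI were left out (log2 of -0.15), and against labelled liver TIL when cells with a B cell, macrophage or neutrophil UMI were left out (-0.18). Klra8 stood 2.48-fold higher in blood for heart (1.55 to 4.14), 2.49-fold against labelled liver TIL (1.63 to 3.97) and 2.22-fold against liver PC (1.68 to 2.97). For Klra4 the ratios were 0.983 (0.554 to 1.79), 1.18 (0.783 to 1.83) and 1.0 (0.755 to 1.34). Of the activating receptors, Klra8 was above 2-fold in each comparison and Klra4 near 1 as the libraries are labelled, but the intervals of the 2 genes were apart only against liver PC.

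These counts were read against all genes with at least 10 UMIs over the 2 libraries and a difference of at least 2-fold in CPM after adding 1. In heart, 1 of 6 members (Klra8) was past 2-fold in blood against 15.8% of 3455 genes, and none was past it in labelled heart TIL against 28.7%. For liver PBMC against labelled liver TIL, Klra1, Klra8 and Klra9 were past 2-fold in blood, 3 of 6 members against 21.3% of 4244 genes, and none in tissue against 14.9%. For liver PBMC against liver PC, Klra8 was the 1 member past 2-fold in blood against 12.9% of 5179 genes, and none was past it in liver PC against 19.0%. The median log2 difference of the members was 0.00, 0.98 and 0.25 in the 3 comparisons, beside -0.38, -0.01 and -0.20 over all genes tested. Klra7, Klra8 and Klra9 had all 3 blood libraries above all 3 tissue libraries, as had 5.03% of 7144 genes.

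As the libraries are labelled, the stricter gate gave the largest ratio to heart and not to labelled liver TIL. With at least 2 gate UMIs the sum was 2.69-fold higher in blood for heart (1.83 to 4.09), 1.12-fold for labelled liver TIL (0.820 to 1.55) and 1.65-fold for liver PC (1.39 to 1.97). Klra8 was 3.31-fold higher in blood for heart (1.63 to 7.58) and 2.48-fold against liver PC (1.77 to 3.54), but 1.21-fold against labelled liver TIL (0.709 to 2.23). In heart, 4 of the 5 members tested were past 2-fold in blood (Klra4, Klra7, Klra8 and Klra9) against 16.2% of genes. In the liver comparisons 1 member each was past it, Klra1 against labelled liver TIL (21.7% of genes, from 17 UMIs in blood and 0 in tissue) and Klra8 against liver PC (11.9%). Klra3 was past 2-fold the other way in labelled liver TIL, from 7 UMIs in tissue and 25 in blood, against 14.3% of genes, and no member was so in labelled heart TIL (18.1%) or liver PC (14.2%). No member then had all 3 blood above all 3 tissue libraries, a pattern held by 5.40% of 4188 genes. With the TIL libraries exchanged, the log2 difference of Klra8 under the wider gate was 0.76 for heart and 1.87 for liver, in place of 1.31 and 1.32, and that of the sum 0.27 and 1.03, in place of 0.47 and 0.82. Klra4 had -0.98 and 1.20 with that exchange, in place of -0.02 and 0.24. The exchange under the stricter gate gave a sum 0.971-fold in blood for heart PBMC (0.698 to 1.38) and 3.10-fold for liver PBMC (2.14 to 4.62), and Klra8 at 1.06-fold (0.597 to 2.01) and 3.78-fold (1.93 to 8.43), so that which organ had the larger ratio turned with the labels of the 2 libraries.

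**Figure D2:**
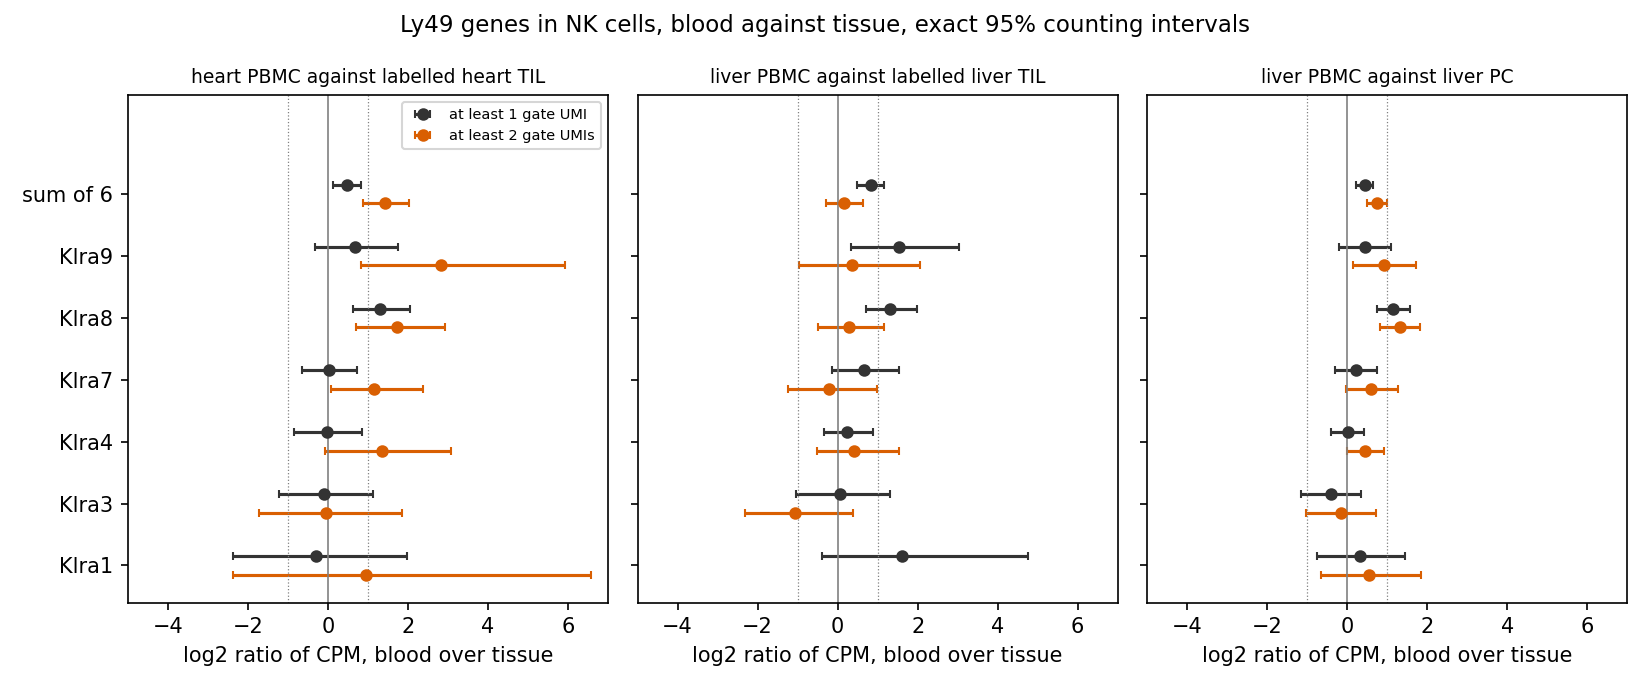
Log2 ratio of CPM, blood over tissue, on the x axis for the sum and each Ly49 gene in NK cells, 1 panel a comparison; black points use at least 1 gate UMI and orange at least 2, bars are exact 95% counting intervals, dotted lines mark 2-fold, and a ratio against 0 UMIs is not drawn. Klra8 lies right of the 2-fold line in all 3 panels for black points, and left of it for the orange point of liver PBMC against labelled liver TIL at 0.28.

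The kidney allowed no such comparison. Kidney TIL held 4 NK cells and kidney PC 0. The 4 cells had 2299 UMIs and no Ly49 UMI, whereas 8.68 would have been counted at the kidney PBMC rate. A count of 0 allows up to 3 UMIs or 1305 CPM, and the exact 95% interval of the 4 cells reaches 1605 CPM.

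The make-up of the Ly49 UMIs was described separately from their level. Klra8 and Klra4 together made up 54.0% of the Ly49 UMIs in heart PBMC NK cells (47.6% to 60.2%), 62.5% in liver PBMC (58.4% to 66.5%) and 51.8% in kidney PBMC (47.5% to 56.1%). They were 42.4% in labelled heart TIL (32.5% to 52.8%), 62.4% in labelled liver TIL (51.2% to 72.6%) and 54.6% in liver PC (48.5% to 60.7%). Klra8 alone was 39.7%, 39.8% and 26.7% in heart, liver and kidney PBMC, and 22.2%, 28.2% and 24.2% in labelled heart TIL, labelled liver TIL and liver PC. There were 2.78 Klra8 UMIs per Klra4 UMI in heart PBMC (1.88 to 4.19) and 1.75 in liver PBMC (1.40 to 2.19), while kidney PBMC had 1.07 (0.838 to 1.36). Tissue NK cells had 1.10 in labelled heart TIL (0.573 to 2.12), 0.828 in labelled liver TIL (0.461 to 1.47) and 0.793 in liver PC (0.563 to 1.11). Liver PBMC and liver PC did not overlap in this ratio, while kidney PBMC lay among the tissue libraries. Neutrophils of heart PBMC also had 101 Klra8 and 54 Klra4 UMIs. The stricter gate gave 2.35 in heart PBMC (1.46 to 3.87), 1.36 in liver PBMC (1.04 to 1.78) and 1.03 in kidney PBMC (0.764 to 1.40). It gave 1.80 in labelled heart TIL (0.542 to 6.84), 1.5 in labelled liver TIL (0.630 to 3.73) and 0.746 in liver PC (0.500 to 1.11). Labelled liver TIL was then above liver PBMC in value, and the intervals of each blood library and the tissue libraries of its organ overlapped.

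**Figure D3:**
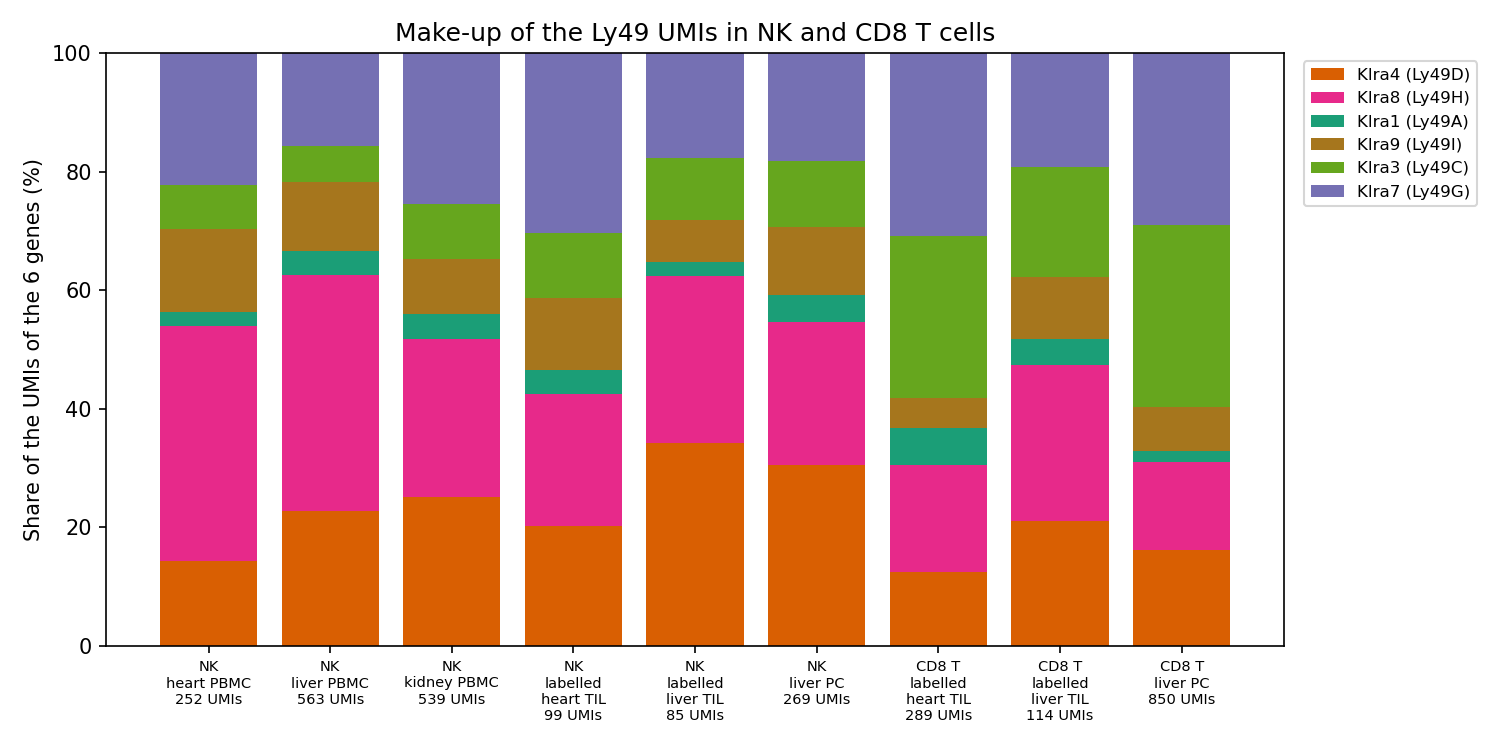
Share of the UMIs of the 6 Ly49 genes on the y axis (percent, stacked to 100) for NK cells of 6 libraries and CD8 T cells of 3 libraries on the x axis, with the number of UMIs under each bar. Klra8 fills 39.7% and 39.8% of the heart and liver PBMC bars, and Klra3 takes 30.7% of the liver PC CD8 T bar against 11.2% of the liver PC NK bar.

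Part of the NK cells had UMIs of more than 1 Ly49 gene. At 500 UMIs per cell, 2 or more of the 6 genes were detected in 9.26% of NK cells of heart PBMC (5.75% to 13.9%), 14.9% of liver PBMC (11.5% to 19.0%) and 29.8% of kidney PBMC (23.0% to 37.3%). The shares were 6.72% in labelled heart TIL (3.12% to 12.4%), 11.3% in labelled liver TIL (5.80% to 19.4%) and 14.0% in liver PC (8.24% to 21.8%). Among cells with any Ly49 gene, 37%, 47.9%, 46.3%, 22.0%, 57.9% and 38.1% had 2 or more, in the same order of libraries, and the intervals of these shares overlapped except for labelled heart TIL (10.6% to 37.6%) beside liver PBMC (38.5% to 57.3%). No cell had all 6, and the most was 4 at this depth and 5 without thinning. A gene counted as absent here is 1 without a UMI, which at this depth is not absence of expression.

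Activating and inhibitory members were found in the same cells. Of the Ly49-positive NK cells at 500 UMIs, 25.9%, 37.6% and 35.2% in heart, liver and kidney PBMC had at least 1 gene of each kind. In labelled heart TIL, labelled liver TIL and liver PC these were 12.2%, 36.8% and 31.0%. Cells with inhibitory genes alone made up 38.9%, 32.5%, 40.7%, 46.3%, 26.3% and 35.7% in the 6 libraries, and cells with activating genes alone 35.2%, 29.9%, 24.1%, 41.5%, 36.8% and 33.3%. Intervals of all 3 classes overlapped between libraries except for cells with both kinds in labelled heart TIL (4.08% to 26.2%) beside liver PBMC (28.8% to 47.0%) and kidney PBMC (26.2% to 45%).

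Pairs were counted beside the number that the separate shares of the 2 genes give within each library, summed over the 6 libraries. These counts are without thinning unless stated. Klra4 and Klra8 were found together in 106 of 1104 cells, beside 42.2 from the product of shares, which is 2.51 times that number. Thinned to 500 UMIs, they were together in 63 cells beside 23.6, or 2.67 times. With at least 2 gate UMIs they were together in 69 of 337 cells beside 47.7, or 1.45 times, and Klra1 and Klra4 in 17 beside 11.6, or 1.47 times. Klra3 and Klra7, both inhibitory, were together in 26 cells beside 21.8, and with at least 2 gate UMIs in 21 beside 25.9. Thinned to 500 UMIs, this pair was in 10 cells beside 9.96 under the wider gate. All 15 pairs lay above the product under the wider gate, and 9 of 15 did so with at least 2 gate UMIs, thinned or not. Between 24.7% (labelled liver TIL) and 70.2% (kidney PBMC) of cells in the wider gate had a Ly49 UMI. A gate that mixes Ly49-bearing cells with others puts pairs above the product by itself. The 15 of 15 therefore cannot show that the genes go together within NK cells. These are descriptions over cells that share libraries, with no test.

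**Figure D4:**
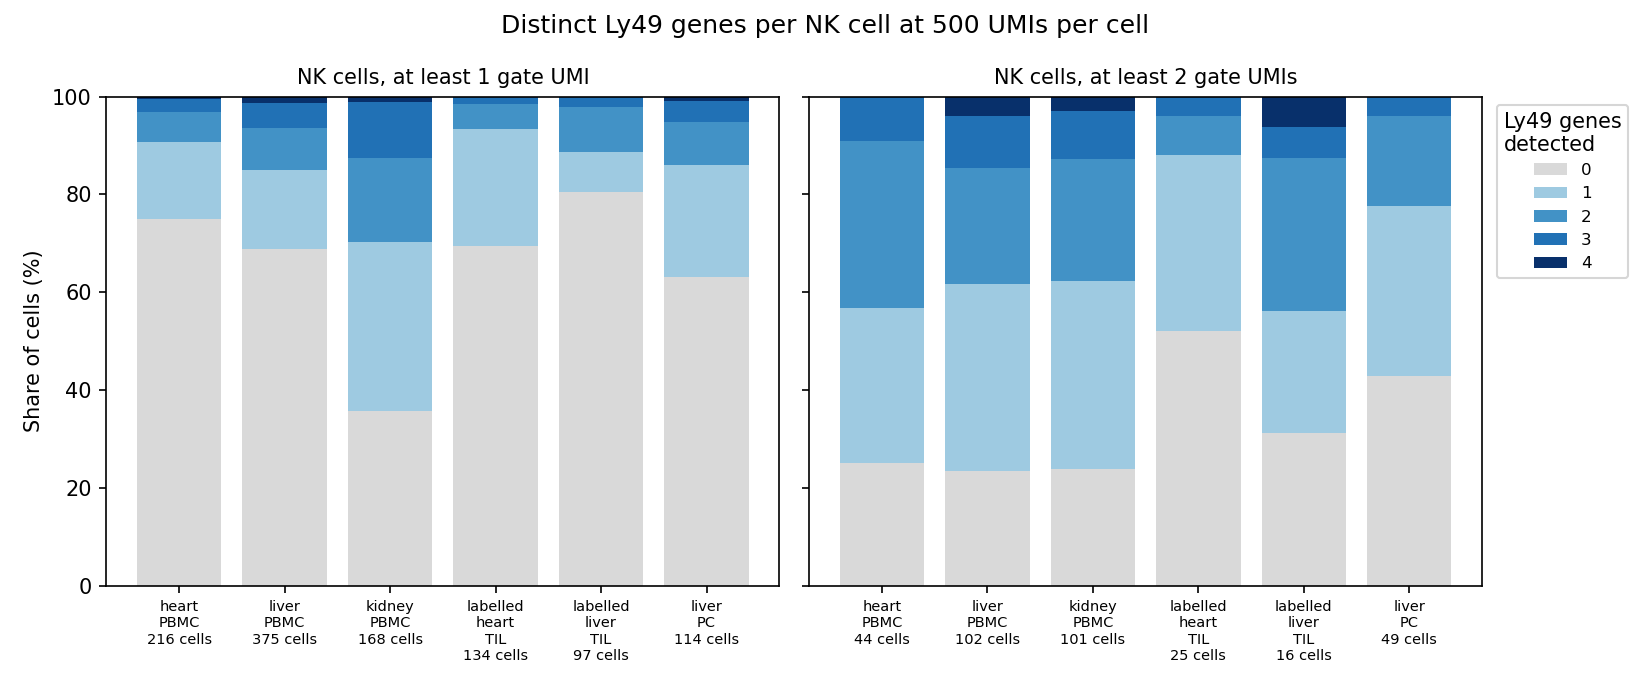
Share of NK cells (y axis, percent) by the number of distinct Ly49 genes detected at 500 UMIs per cell (shades) in each library (x axis), for at least 1 gate UMI (left) and at least 2 (right). Kidney PBMC has the most cells with 2 or more genes on the left at 29.8%, while on the right heart, liver and kidney PBMC lie at 43.2%, 38.2% and 37.6%.

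NK cells with and without a Ly49 UMI were compared within each library for genes of NK maturation and of type 1 innate lymphoid cells (ILC1), which resemble NK cells and lie in tissue. Of the 15 maturation genes, Klrg1, an inhibitory receptor of mature NK cells, and Cma1, a mast cell protease gene also expressed by NK cells, were at least 2-fold higher in Ly49-positive cells in 6 of 6 libraries, against 0.140% of the 7138 genes other than the members with at least 10 UMIs over these cells. Klrg1 had 236 CPM with and 7.69 without a Ly49 UMI in heart PBMC, 262 and 58.9 in liver PBMC, 571 and 223 in kidney PBMC, 190 and 0 in labelled heart TIL, 234 and 0 in labelled liver TIL, and 160 and 62.2 in liver PC. These levels rest on 5 to 61 Klrg1 UMIs in the positive cells of a library. The genes past 2-fold in 5 of 6 libraries were named after their values were seen. They were Gzma (granzyme A), S1pr5 (an egress receptor) and Tbx21 (T-bet) of the maturation list, all higher in positive cells, and Il7r (the interleukin 7 receptor) and Tmem176b of the ILC1 list, both lower. In at least 5 libraries 1.34% of all genes were higher and 1.65% lower. Itgam of the maturation list was higher in 1 library and lower in 2. Gzma had 10073 CPM with and 1207 without a Ly49 UMI in heart PBMC, and 18848 and 10941 in kidney PBMC. Il7r rested on 1 to 5 UMIs in the negative cells of each of its 5 libraries, and Tmem176b, on 1 to 23, was higher in positive cells of kidney PBMC from 1 UMI.

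Klrg1 and Gzma differed in fewer libraries under the stricter gate. With at least 2 gate UMIs, 5 libraries had enough cells, and Klrg1 was at least 2-fold higher in positive cells in 1 and lower in 1, while Gzma passed 2-fold in 0 of 5. Cma1 was higher in 3 of 5 and lower in 1. Eomes, a T-box factor of NK cells also chosen after its values were seen, was past 2-fold in positive cells in 4 of 6 libraries under the wider gate and 4 of 5 under the stricter one, but from 1 to 8 UMIs in the positive and 0 or 1 in the negative cells of these libraries. The share of all genes with such patterns is not given for the stricter gate or for 4 of 6 libraries, so these counts have no background beside them. Ncr1, 1 of the genes of the gate itself, was also higher in Ly49-positive cells of the wider gate, by a median log2 of 0.88, and Trac, a T cell gene, had a median of -0.95. How far NK cells differ from other cells inside the wider gate in these values was not tested.

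The signalling partners of the receptors were read in the same blood and tissue comparisons. Tyrobp, the adaptor of Ly49D and Ly49H, had the highest level of the 15 genes of this list in NK cells, with 6334, 6290 and 4462 CPM in heart, liver and kidney PBMC and 2645, 2536 and 2741 CPM in labelled heart TIL, labelled liver TIL and liver PC. It was past 2-fold in blood in all 3 comparisons, with log2 differences of 1.26, 1.31 and 1.20. Tyrobp is also a myeloid gene, and the neutrophil list moved the same way in these cells. Under the stricter gate Tyrobp passed 2-fold in the heart comparison only. There 2 of 6, 1 of 8 and 1 of 9 tested genes of the list were higher in blood, against 16.2%, 21.7% and 11.9% of all genes. Hcst (DAP10, 360 to 686 CPM), the phosphatase gene Ptpn6 (140 to 485 CPM) and the kinase gene Lck (156 to 490 CPM) followed in level. Of the list's tested genes, 1 of 10, 4 of 12 and 3 of 13 were higher in blood by at least 2-fold, against 15.8%, 21.3% and 12.9% of all genes, and 2, 2 and 1 in tissue, against 28.7%, 14.9% and 19.0%, with medians of 0.38, 0.41 and 0.06. Zap70 and Lat, which act below the T cell receptor, were the 2 higher in both TIL libraries. T cell receptor RNA moved the same way in these cells, with Trac at 40.4 against 629 CPM in heart and 49.8 against 423 CPM for liver PBMC and labelled liver TIL, and its part in these 2 genes was not tested. Under the stricter gate Lat was the 1 list gene higher in each TIL library, and none was higher in liver PC, against 18.1%, 14.3% and 14.2% of all genes. With the TIL libraries exchanged, 2 of 9 genes were higher in blood and 2 in tissue for heart PBMC, and 3 of 13 and 4 for liver PBMC, with medians of 0.69 and 0.20, against 16.6% and 22.5%, and 19.3% and 18.5%, of all genes. Tyrobp was past 2-fold in blood and Zap70 and Lat in tissue in both.

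The class I ligands and the genes that load them were read in the same comparisons. H2-D1 and H2-K1, the class I heavy chains, had 3406 to 5758 and 2560.3 to 3965 CPM in NK cells of the 6 libraries. B2m, their light chain, had 10571 to 12897 CPM and the chaperone Calr 116 to 485 CPM. None of the 7, 7 and 8 genes tested was past 2-fold in blood, where 15.8%, 21.3% and 12.9% of all genes were. In tissue 1, 0 and 1 were past it, Calr in labelled heart TIL and Erap1 in liver PC, where 28.7%, 14.9% and 19.0% of all genes were. Under the stricter gate 7 genes were tested in each comparison. Tapbp (tapasin) was past 2-fold in blood for heart and for labelled liver TIL, against 16.2% and 21.7% of all genes. Calr was past it in tissue for labelled liver TIL, against 14.3%. With the TIL libraries exchanged, none was past 2-fold in blood, against 16.6% and 19.3% of all genes. Calr was past it in tissue for heart PBMC alone, against 22.5%. H2-L had no row in any library. These rows sum reads over donor and recipient alleles, which were not told apart.

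Genes of NK maturation were read in the same way. Gzmb, the granzyme B gene, was higher in tissue in all 3 comparisons, at 869 against 2858 CPM in heart, and 787 in liver PBMC against 1715 in labelled liver TIL and 2240 in liver PC. Of the maturation genes tested, 2 of 10, 6 of 12 and 3 of 13 were past 2-fold in blood, where 15.8%, 21.3% and 12.9% of all genes were. In tissue 1, 2 and 1 were past it, where 28.7%, 14.9% and 19.0% of all genes were. The median log2 difference of the list was -0.13, 1.05 and -0.05, beside -0.38, -0.01 and -0.20 over all genes. Under the stricter gate 2 of 7, 5 of 10 and 4 of 11 were past 2-fold in blood, against 16.2%, 21.7% and 11.9% of all genes, with medians of -0.03, 1.27 and 0.68 beside -0.08, 0.16 and -0.08 over all genes. With the TIL libraries exchanged, the count was 3 of 10 for heart PBMC (16.6% of all genes) and 4 of 12 for liver PBMC (19.3%), and under the stricter gate 3 of 7 (22.3%) and 5 of 10 (21.1%). As labelled, Itgam, S1pr5 and Klrg1 were past 2-fold against labelled liver TIL under both gates. Gzmb was past it in tissue in liver PC alone under the stricter gate. In the ILC1 list none of the 2, 3 and 2 genes tested was higher in blood, and 2, 1 and 0 were higher in tissue, against 28.7%, 14.9% and 19.0% of all genes, with Cxcr6 at 157 CPM in labelled heart TIL against 15.2 in heart PBMC. Trac was also higher in tissue in these cells, as given above, and its part in Cxcr6 was not tested. With the TIL libraries exchanged, Cxcr6 was the 1 gene higher in tissue in each. No ILC1 gene had enough UMIs under the stricter gate.

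CD8 T cells had far lower Ly49 levels in CPM than NK cells. The sum of the 6 was 86.8 CPM in heart PBMC (60.5 to 121, 329 cells) and 72.8 in liver PBMC (40.8 to 120, 183 cells), while kidney PBMC had 90.3 (62.2 to 127, 280 cells). It was 102 CPM in labelled heart TIL (90.3 to 114, 2581 cells), 59.6 in labelled liver TIL (49.1 to 71.6, 1768 cells), 82.6 in liver PC (77.1 to 88.3, 4803 cells), 26.2 in kidney TIL (15.0 to 42.5, 755 cells) and 56.0 in kidney PC (24.2 to 110, 218 cells). The blood intervals overlapped one another and those of the heart and liver graft libraries. Kidney TIL was below all of these except liver PBMC, whose interval it overlapped. In summed counts the order of the 2 cell types turned in the grafts, where CD8 T cells were more numerous. CD8 T and NK cells had 289 and 99 Ly49 UMIs in labelled heart TIL, 114 and 85 in labelled liver TIL, and 850 and 269 in liver PC.

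Part of this signal was at the level of cells that should lack Ly49. The neutrophil and macrophage gates leave out cells with a UMI of a Cd3 or NK gate gene, while the CD8 T gate keeps them. The ratios below thus compare cells that were not gated alike. In blood the CD8 T level was 1.26 times that of neutrophils in heart PBMC (0.859 to 1.79), 0.691 times in liver PBMC (0.383 to 1.15) and 0.237 times in kidney PBMC (0.15 to 0.371). The intervals thus did not set the summed level of blood CD8 T cells above that of neutrophils. Single neutrophils had up to 8, 4 and 9 Ly49 UMIs in these libraries, and single CD8 T cells up to 9, 6 and 10. Whether the neutrophil level is free RNA alone was not tested, so it cannot show that blood CD8 T cells lack Ly49. At 500 UMIs per cell, 4.26%, 2.19% and 4.29% of blood CD8 T cells had a Ly49 UMI, against 3.07%, 5.39% and 11.4% of neutrophils. In the grafts the level was 2.09 times that of macrophages in labelled heart TIL (1.60 to 2.75) and 2.92 times in liver PC (2.25 to 3.84), but 1.06 times in labelled liver TIL (0.808 to 1.39), 0.526 times in kidney TIL (0.184 to 1.84) and 0.945 times in kidney PC (0.253 to 4.29). The thinned shares were 4.53% against 2.38% of macrophages, 3.83% against 1.58%, and 2.71% against 2.60%. Median depths were 912 UMIs in CD8 T cells and 770 in macrophages of labelled heart TIL, 1698 and 1518 in liver PC, and 877 and 709 in labelled liver TIL.

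Cells with several Ly49 UMIs were more frequent among CD8 T cells than in that background, without overlap of the intervals, in liver PC and labelled heart TIL. The background gates left out cells with NK gate UMIs, but the CD8 T gate did not. With a Cd3 UMI and no NK gate UMI required, 69 of 4066 CD8 T cells of liver PC had at least 2 Ly49 UMIs. In labelled heart TIL 24 of 2155 did so. How far the unlike gates set these shares apart was not tested. At least 2 UMIs of the 6 genes were counted in 116 CD8 T cells of liver PC, 2.42% (2.0% to 2.89%), against 6 macrophages, 0.498% (0.183% to 1.08%). In labelled heart TIL there were 44 such CD8 T cells, 1.70% (1.24% to 2.28%), against 5 macrophages, 0.313% (0.102% to 0.728%). In labelled liver TIL there were 14, 0.792% (0.434% to 1.33%), against 9, 0.377% (0.173% to 0.715%), with overlapping intervals. Kidney TIL had 2 such CD8 T cells, 0.265% (0.0321% to 0.954%), against 1 macrophage, 0.649%, and kidney PC had 1 against 0. In blood there were 3, 1 and 3 such CD8 T cells in heart, liver and kidney PBMC, 0.912%, 0.546% and 1.07%, against 0.449%, 0.493% and 4.57% of neutrophils, with overlapping intervals. These shares are not thinned, and the median depth of the cells with at least 2 UMIs was 2029 UMIs in liver PC and 1192 in labelled heart TIL.

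**Figure D5:**
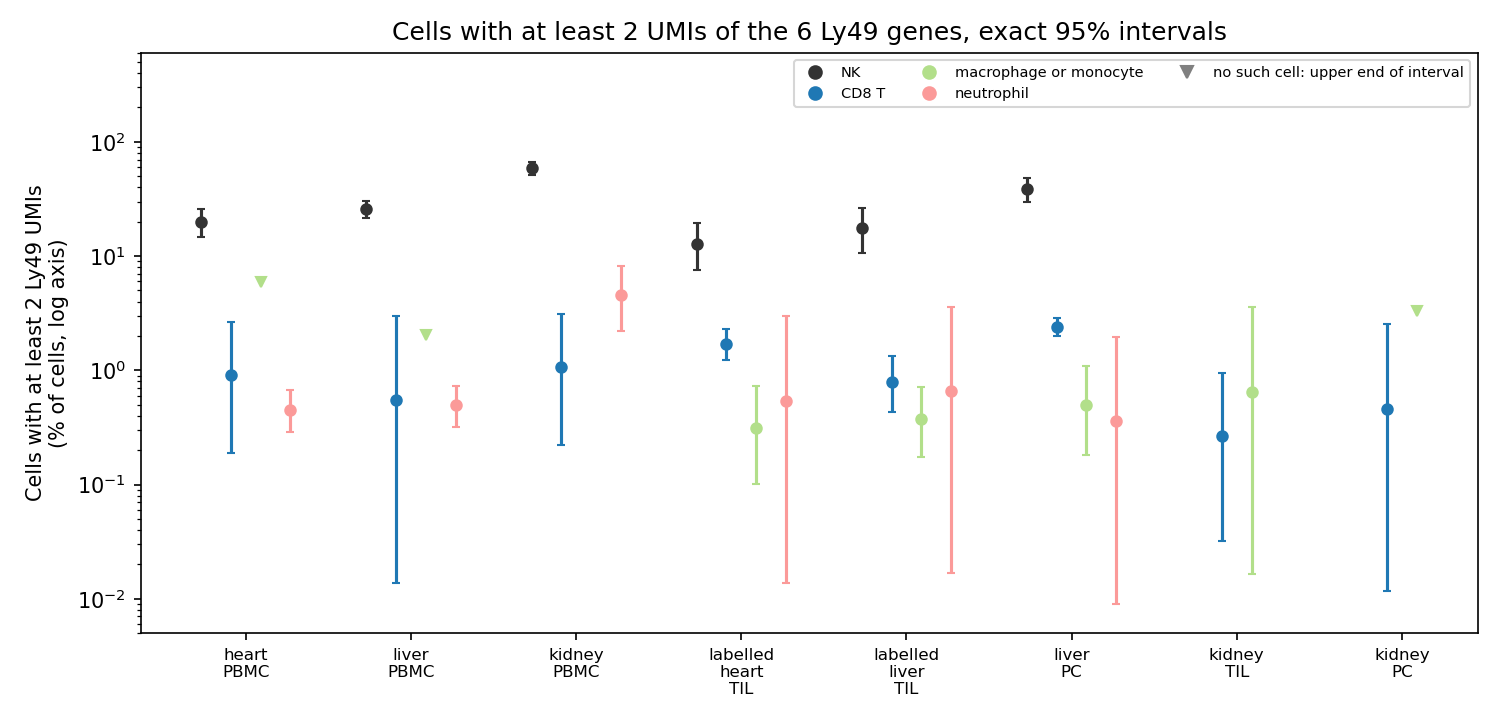
Share of cells with at least 2 UMIs of the 6 Ly49 genes (y axis, percent, log axis) in each library (x axis) for 4 cell gates (colours), with exact 95% binomial intervals and triangles at the upper end where no such cell was found; gates under 50 cells are not drawn. In liver PC, NK cells lie at 38.6%, CD8 T cells at 2.42% and macrophages at 0.498%. The macrophage and neutrophil gates leave out cells with a Cd3 or NK gate UMI, which the CD8 T gate keeps.

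The make-up of the Ly49 UMIs of CD8 T cells differed from that of NK cells in liver PC and labelled heart TIL beyond counting error for Klra3. In liver PC, Klra3 (Ly49C) made up 30.7% of the Ly49 UMIs of CD8 T cells (27.6% to 33.9%) and 11.2% of those of NK cells (7.65% to 15.5%), and Klra7 (Ly49G) 29.1% (26.0% to 32.2%) and 18.2% (13.8% to 23.4%). The activating Klra4 and Klra8 together were 31.1% in CD8 T cells and 54.6% in NK cells. In labelled heart TIL, Klra3 was 27.3% in CD8 T cells (22.3% to 32.9%) and 11.1% in NK cells (5.68% to 19.0%), while Klra7 was alike at 30.8% and 30.3%. In labelled liver TIL the CD8 T cells had 18.4% Klra3 (11.8% to 26.8%) and 47.4% Klra4 and Klra8 (37.9% to 56.9%), and both overlapped the NK values of 10.6% (4.96% to 19.2%) and 62.4%. Macrophages of liver PC had 35.5% Klra3 (23.7% to 48.7%) and 35.5% Klra4 and Klra8 from 62 Ly49 UMIs, which overlapped the CD8 T values. In liver PC this make-up was thus not set apart from that of macrophages. Macrophages of labelled heart TIL had 14.3% Klra3 from 70 Ly49 UMIs (7.07% to 24.7%), which also overlapped the CD8 T share. The level of Klra3 in CD8 T cells there was 4.0 times that of macrophages (2.06 to 8.65), beside 2.09 times for the sum (1.60 to 2.75). In liver PC it was 2.53 times (1.63 to 4.10), below the sum at 2.92 times (2.25 to 3.84). The intervals of Klra3 and of the sum overlapped in both libraries. Against NK cells, the inhibitory Klra3 took the larger share in CD8 T cells of the 2 libraries where they stood above macrophages.

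Some CD8 T cells with several Ly49 UMIs also had NK transcripts. Of the 116 cells of liver PC, 39.7% had a UMI of Ncr1, Klrb1c or Klre1, against 11.1% of all CD8 T cells there, and of the 44 cells of labelled heart TIL 43.2%, against 9.42%. Whether these are doublets with NK cells was not tested, so the cells with a Cd3 UMI and none of the 3 NK genes were described alone. In liver PC these were 69 cells with 191 Ly49 UMIs, of which 89 were Klra3 and 70 were Klra7. The remaining UMIs were 11 of Klra8, 10 of Klra4, 10 of Klra9 and 1 of Klra1. Klra3 and Klra7 were thus 83.2% (77.2% to 88.2%), against 28.8% (23.4% to 34.8%) in NK cells with at least 2 Ly49 UMIs. This pair was not planned, and its 2 genes had the most Ly49 UMIs in CD8 T cells of liver PC (261 and 247). The shares of the pair are a description of these data. The interval also treats the 191 UMIs as separate draws, though they came from 69 cells. In labelled heart TIL 24 such cells had 61 UMIs, with 68.9% Klra3 and Klra7 (55.7% to 80.1%) against 42.0% (30.2% to 54.5%) in NK cells. Over all CD8 T cells with at least 2 Ly49 UMIs the share of Klra3 and Klra7 was 57.7% in liver PC (53.0% to 62.3%), 53.3% in labelled heart TIL (44.6% to 62.0%), which overlapped NK cells, and 31.7% in labelled liver TIL (18.1% to 48.1%), beside 25.6% in its NK cells (16.4% to 36.8%).

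Most of these CD8 T cells in liver PC had UMIs of 1 Ly49 gene. There 45 of the 69 cells, 65.2% (52.8% to 76.3%), had all their Ly49 UMIs from a single gene, against 9 of 44 NK cells with at least 2 Ly49 UMIs, 20.5% (9.80% to 35.3%). In labelled heart TIL it was 50% (29.1% to 70.9%) against 11.8% (1.46% to 36.4%), with overlapping intervals. Over all CD8 T cells with at least 2 Ly49 UMIs, NK transcripts or not, the shares were 52.6% in liver PC (43.1% to 61.9%), 43.2% in labelled heart TIL (28.3% to 59%) and 35.7% in labelled liver TIL (12.8% to 64.9%). The cells did not have the same number of Ly49 UMIs, which was at most 7 in the 69 cells and 21 in the NK cells.

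Other genes of Ly49-positive CD8 T cells were compared with those of the rest. The NK genes Ncr1, Klrb1c and Klre1 were past 2-fold higher in them in 3 of 3 libraries, a pattern held by 0.191% of 13100 genes, with median log2 differences of 4.17, 4.04 and 1.80, from 1 to 58 UMIs each in the positive cells of a library. Of 14 genes known from Ly49-bearing memory or regulatory CD8 T cells, none was at least 2-fold different in the same direction in all 3 graft libraries between cells with at least 2 Ly49 UMIs and cells with 0, while 8.46% of all genes were lower in all 3, where labelled liver TIL had 14 positive cells. Cells with a UMI of the 3 NK genes were kept among the positive cells. They were 43.2%, 28.6% and 39.7% of these in labelled heart TIL, labelled liver TIL and liver PC. Their part in the levels that follow was not tested. Klrd1 (CD94), the partner of the NKG2 receptors, had 935 and 457 CPM in labelled heart TIL, 787 and 505 in labelled liver TIL, and 881 and 584 in liver PC. Il2rb (CD122) had 338 and 171, 324 and 281, and 275 and 192 CPM in the same order. Ikzf2 (Helios), the factor of regulatory CD8 T cells, had 16.1 and 2.69, 0 and 4.43, and 3.35 and 7.6 CPM, with no shared direction. These Ikzf2 levels rest on very few UMIs in the positive cells, so no direction can be read from them. Gzmm, the granzyme M gene, and Eomes had 0 UMIs in the positive cells of both TIL libraries, beside 10 to 21 in the rest, while in liver PC Eomes had 36.8 and 7.82 CPM.

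Klra2 and Klra17 had levels in myeloid cells. Klra2 (Ly49B), the myeloid member, had 128, 176 and 209 CPM in macrophages or monocytes of labelled heart TIL, labelled liver TIL and liver PC and 474 in liver PBMC, and 14.0 to 149 CPM in NK cells. Klra17 (Ly49Q) had 84.8 and 63.2 CPM in neutrophils of heart and liver PBMC, and 0 to 80.8 CPM in NK cells, the highest in heart PBMC. The pseudogene Klra13-ps followed the members, at 136, 296 and 441 CPM in NK cells of heart, liver and kidney PBMC and 102, 74.6 and 263 CPM in labelled heart TIL, labelled liver TIL and liver PC, beside 2.61 to 46.5 CPM in CD8 T cells. It shares the sequence windows with Klra7 given above. Of the 3 other Klra genes tested, 1, 2 and 0 were past 2-fold in blood, against 15.8%, 21.3% and 12.9% of all genes, and none in tissue. With the TIL libraries exchanged, 1 was past 2-fold in blood for heart PBMC and 2 for liver PBMC, against 16.6% and 19.3% of all genes. Under the stricter gate Klra13-ps alone was tested, and it was past 2-fold in blood against labelled liver TIL, from 56 UMIs in blood and 0 in tissue, where 21.7% of all genes were.

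Across 33 points, each a cell gate of 1 library, the genes whose log2 level was most like the sum of the members among 5884 genes were Khdc1a (Pearson r 0.82), Klra13-ps (0.79), Cma1 (0.79), Klri2 (0.78) and Klrg1 (0.77). The points share libraries and depth, NK gates alone are high, and r is given as a description. Khdc1a had 65.7, 79.7 and 140 CPM in NK cells of heart, liver and kidney PBMC, and 74.0, 24.9 and 150 CPM in labelled heart TIL, labelled liver TIL and liver PC.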

How the data were processed

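The deposited tables hold UMI counts per gene and barcode, 1 table for each of the 8 libraries with 10000 barcodes each. Per the labels and the study's methods, the authors sequenced Microwell-seq libraries, aligned reads with STAR to GRCm38, removed reads aligned to several places and merged UMIs that differed by 1 base. The study kept cells of at least 500 UMIs and removed those over 10% mitochondrial UMIs, a limit tried here as an alternative. Samples were grouped by organ and compartment from their labels.

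Counts of gated cells were summed per library and scaled to CPM. Levels carry exact Poisson intervals, shares exact binomial (Clopper-Pearson) intervals and ratios exact conditional intervals, all at 95% and for counting error only. Log2 differences were taken after adding 1 CPM. Thinning drew 500 UMIs per cell without replacement (seed 0). With 1 library for each organ and compartment, no test was run. Coding sequences came from GENCODE transcripts. Python 3.11.15, numpy 2.4.6, scipy 1.17.1 and pandas 2.3.3 were used, and the scripts were tested on simulated data. The lists, gates and members were chosen with earlier results of these data known. Named genes were the 6 members, the 4 genes of highest level in the signalling and ligand lists, list genes past 2-fold in the same direction in every library compared, and the 5 genes most like the summed members. A gene that this rule names is not reported here. Kidney NK comparisons were left out, since fewer than 50 NK cells were found in kidney TIL and PC.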

Additional observations from a re-analysis of the deposited data

Results flagged for a closer look

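Most Ly49 UMIs of the kidney libraries, blood and graft, lay in barcodes under 500 UMIs, which the comparisons do not use. There were 118 UMIs of the 6 genes in such barcodes of kidney TIL, 77.6% of its Ly49 UMIs, and 122 in kidney PC, 87.8%. A count of 0 would allow up to 3. Kidney PBMC had 1214 in such barcodes, 57.8%. Of the UMIs of all genes, 1479533 of 3935284 in kidney TIL lay in barcodes of at least 500 UMIs. In kidney PC these were 494664 of 3418722, and in kidney PBMC 1047882 of 3450766. Most UMIs of all genes thus lay under 500 UMIs as well. Without a minimum of UMIs, the NK gate held 39 barcodes of kidney TIL with 8 Ly49 UMIs, 589 CPM (254 to 1161), and 27 of kidney PC with 1 Ly49 UMI, 119 CPM (3.02 to 664). Kidney PBMC had 624 such barcodes at 2729 CPM (2536 to 2932). Barcodes of so few UMIs can be empty wells with free RNA, and whether they were was not tested.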

How the results depend on the processing

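The log2 difference of the summed Ly49 genes in NK cells was 0.47 for heart, 0.82 for labelled liver TIL and 0.43 for liver PC, and was over 0 in blood except under the settings given here with a minus sign. It moved to 1.43, 0.16 and 0.73 with at least 2 gate UMIs, and to 2.36, -0.33 and 1.23 when cells with a B cell, macrophage or neutrophil UMI were also left out, a setting chosen after seeing the data. With at least 2 gate UMIs and the labels of the TIL libraries exchanged, also chosen after seeing the data, it was -0.042 in heart and 1.63 in liver. In heart it was 1.11 at a minimum of 1000 UMIs and -0.15 without cells that had a T cell receptor or coreceptor UMI. Against labelled liver TIL it was 1.17 without such cells and -0.18 without cells with a B cell, macrophage or neutrophil UMI. Against liver PC it was 0.13 with thinning and 0.66 without shared barcodes. Among members past 2-fold, the log2 difference reversed for Klra1 against labelled liver TIL (-1.17 without T cell receptor UMIs) and for Klra9 there (-1.13 without B cell, macrophage or neutrophil UMIs, -1.40 with at least 2 gate UMIs as well). Members within 2-fold also changed sign, among them Klra3 against labelled liver TIL (0.05, and -1.06 with at least 2 gate UMIs) and Klra4 in heart (-0.02, and 1.34). Klra8 kept its direction under every setting, at 0.09 to 3.65 in heart, 0.28 to 2.23 against labelled liver TIL and 0.69 to 2.99 against liver PC. Genes past 2-fold numbered 1539, 1533 and 1651 in the 3 comparisons, 607, 476 and 557 among genes of at least 30 UMIs, 390, 585 and 658 with at least 2 gate UMIs, and 786, 631 and 1071 at a minimum of 1000 UMIs, where fewer genes were tested. In CD8 T cells the sum moved in kidney PBMC to 47.9 CPM with a Cd3 UMI required, 52.6 without NK gate UMIs and 40.5 at 1000 UMIs, in labelled heart TIL to 78.1 without NK gate UMIs, in liver PC to 58.9 without them and 92.9 with thinning, and at 1000 UMIs to 14.9 in kidney TIL and 0 in kidney PC. The share of NK cells with at least 2 Ly49 genes was 15.3%, 20.3%, 46.4% and 30.7% without thinning in heart, liver and kidney PBMC and liver PC. Thinned to 1000 UMIs it was 20%, 31%, 48.5%, 15.4%, 27.8% and 25% in heart, liver and kidney PBMC, labelled heart TIL, labelled liver TIL and liver PC. With at least 2 gate UMIs it was 43.2%, 38.2%, 37.6%, 12%, 43.8% and 22.4% in the same libraries, of which labelled heart and liver TIL had 25 and 16 cells. The cause of the moves was not tested. Blood and graft NK cells could be set side by side within heart and liver only, with 1 library for each organ and compartment, and no paired test was run. NK cells number 97 to 375 a library, so members under 100 CPM rest on few UMIs.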
